A study of Mus musculus with 4 samples.

Results

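Leucine, isoleucine and valine, the branched-chain amino acids, are broken down in mitochondria by a shared entry route followed by separate arms, and 10 genes of this route were followed in the epigonadal fat pad, a visceral white adipose depot of the mouse. The genes were Bcat2, Bckdha, Bckdhb, Dbt, Bckdk, Mccc1, Mccc2, Ivd, Hibch and Aldh6a1, chosen by name as steps of the pathway. All 10 were found among the 22180 genes of the arrays, each through a probe that the platform annotation ties to that gene alone, and all 10 passed the filter on dim genes. Aldh6a1 had 2 such probes, of which the brighter was used, and the other genes had 1.

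Fasted male mice of 4 genotypes were compared, with 1 array each. All of them carry floxed Irs1 and Irs2, the genes of the insulin receptor substrates. The Irs1/2-flox control, called the Irs control from here on, has these floxed genes and no Cre recombinase. LDKO is Irs1/2-flox: Albumin cre, in which they are deleted where the albumin promoter is active, the hepatocyte. The Irs1/2:FoxO1-flox control, called the FoxO1 control, carries floxed Foxo1 (a transcription factor restrained by insulin) as well, and LTKO is the same line with Albumin cre. Mice of both Cre lines were 4 months old; no age is given for the controls in the sources used here. Fat is not the tissue in which this Cre acts, so the arrays read fat of animals whose liver was altered. It is also not stated if an array holds RNA of a single animal or of several.

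The first step of the route is reversible. Bcat2, the mitochondrial branched-chain aminotransferase, passes the amino group of all 3 amino acids to 2-oxoglutarate and leaves branched-chain keto acids. The second step is not reversible: the branched-chain keto acid dehydrogenase complex, built from Bckdha and Bckdhb (the E1 alpha and beta subunits), Dbt (the E2 core) and Dld (E3, shared with other dehydrogenases), turns the keto acids into acyl-CoA esters, and it is switched off when the kinase Bckdk phosphorylates its E1 alpha subunit and on again by the phosphatase Ppm1k. After that the arms part. Ivd and the carboxylase made of Mccc1 and Mccc2 belong to leucine alone, Hibch belongs to valine, and Aldh6a1 closes the valine arm. White adipocytes are known to use these amino acids as a source of carbon for fatty acids, and the pathway is known to be sensitive to insulin and to fat mass.

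Upstream sequence is shown for 5 of the genes because their values carry the patterns described further on. Bckdha, Bckdhb, Bckdk and Mccc2 were higher in both arrays of the line with floxed Foxo1 than in both arrays of the other line. Mccc1 and Mccc2, partners in 1 enzyme, differed in opposite directions between LDKO and its own control, only Mccc1 by 1.5-fold. Each stretch holds 220 bases that end before the annotated gene begins, from RefSeq on build GRCm38.p6, written 5′ to 3′ along the gene's strand. Capitals mark matches, on either strand, to CCAAT (or ATTGG), the box bound by the factor NF-Y, or to GGGCGG (or CCGCCC), the GC box bound by Sp/KLF factors.
Bckdha (chr7:25658792-25659011, minus strand): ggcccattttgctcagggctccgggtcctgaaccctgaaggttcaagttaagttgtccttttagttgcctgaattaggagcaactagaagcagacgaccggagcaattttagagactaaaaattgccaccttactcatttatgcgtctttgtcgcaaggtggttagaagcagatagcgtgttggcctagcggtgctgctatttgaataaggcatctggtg
Bckdhb (chr9:83924887-83925106, plus strand): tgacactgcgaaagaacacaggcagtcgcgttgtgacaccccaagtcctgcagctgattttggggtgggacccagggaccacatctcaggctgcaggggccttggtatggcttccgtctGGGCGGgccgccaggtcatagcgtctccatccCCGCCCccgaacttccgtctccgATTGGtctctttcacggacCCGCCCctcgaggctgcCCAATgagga
Bckdk (chr7:127903823-127904042, plus strand): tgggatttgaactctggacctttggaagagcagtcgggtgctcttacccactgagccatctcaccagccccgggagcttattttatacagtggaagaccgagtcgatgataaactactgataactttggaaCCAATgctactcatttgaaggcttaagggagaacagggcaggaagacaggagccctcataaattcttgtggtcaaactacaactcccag
Mccc1 (chr3:36000709-36000928, minus strand): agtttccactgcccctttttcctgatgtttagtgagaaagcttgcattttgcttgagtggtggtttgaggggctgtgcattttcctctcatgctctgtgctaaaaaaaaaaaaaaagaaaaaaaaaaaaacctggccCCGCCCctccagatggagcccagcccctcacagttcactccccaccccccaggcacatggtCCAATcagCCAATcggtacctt
Mccc2 (chr13:100015670-100015889, minus strand): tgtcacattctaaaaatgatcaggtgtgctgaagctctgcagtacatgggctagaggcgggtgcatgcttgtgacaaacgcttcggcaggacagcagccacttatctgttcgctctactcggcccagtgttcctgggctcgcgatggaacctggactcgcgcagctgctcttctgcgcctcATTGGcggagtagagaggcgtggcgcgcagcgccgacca

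The stretches differed in these letters. The Bckdhb stretch held 2 CCAAT boxes and 3 GC boxes, and that of Mccc1 held 2 CCAAT boxes and 1 GC box. Bckdk and Mccc2 held 1 CCAAT box each and no GC box, and the Bckdha stretch held neither. Over all 32851 promoter windows of the table, cut to the same 220 bases, 31% held a CCAAT box and 28.5% a GC box. Of 7 genes with a stretch outside the annotated gene, which also take in Hibch (4 GC boxes, some overlapping) and Aldh6a1 (3 CCAAT boxes), none held CACGTG (5.01% of windows), the FoxO core GTAAACA or its reverse TGTTTAC (2.81%), or the nuclear receptor half-site AAGGTCA or its reverse TGACCTT (3.67%). A match or its absence in this window is a description of the letters only. Of the 10 genes 9 matched the promoter table; no stretch was used for Bcat2, Dbt and Ivd.

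Signals are on a log2 scale on which 1 unit is a 2-fold difference, and levels are compared between arrays for the same gene, not between genes. With 1 array per group there is no replicate spread, so no difference carries an error or a test, and precision is limited by the number of arrays. A difference is called here where it reached 1.5-fold, or 0.585 on the log2 scale, and counts of the 10 genes are set beside the share of all genes past the filter that did the same. The 4 arrays were alike overall: their median signals lay between 4.68 and 4.73, and pairs of arrays correlated across genes with Pearson's r of 0.986 to 0.991. Irs1 lay between 6.96 and 7.86, Irs2 between 7.62 and 7.96 and Foxo1 between 8.02 and 8.37, which says nothing of their deletion in hepatocytes. Adipocyte markers were high on all 4 arrays, with adiponectin (Adipoq) between 10.35 and 10.57 and the lipid chaperone Fabp4 between 12.98 and 13.09.

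Other tissues left marks that differed between arrays. The 14 skeletal muscle markers averaged 6.10 in the Irs control and 5.26 to 5.33 in the other arrays. Myh4, a fast muscle myosin, was 7.57 there and 4.56 to 4.95 elsewhere. Mesothelial markers had a mean of 7.33 in that array and 6.69 to 6.90 in the others. Of these 11 markers 4 were higher in LTKO than in the Irs control: Krt8, Krt18, Krt19 and Cdh1. The LTKO array held signal of the epididymis (mean of 9 markers 5.34, against 3.59 to 3.67), of the testis (mean of 9 markers 6.02, against 4.53 to 4.57) and of hepatocytes (mean of 12 markers 6.78, against 5.35 to 5.52). Because these are whole fat pads, fewer cells of a type and less RNA per cell cannot be told apart.

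The breakdown genes did not move as a block. Bcat2 and Mccc1 were highest in LDKO. For Bckdha, Bckdhb, Bckdk and Mccc2 both arrays of the line with floxed Foxo1 lay above both arrays of the other line. For Bckdhb, LTKO was only 0.16 above LDKO. Mccc2 was also lowest in LDKO and highest in LTKO, and Ivd, Hibch and Aldh6a1 stayed within 0.29 over the 4 arrays. The distance between a gene's highest and lowest array had a median of 0.63 over the 10 genes, beside 0.34 over the 11958 genes past the filter. The widest was that of Mccc1, 0.84, and the narrowest that of Aldh6a1, 0.16.

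**Figure D1:**
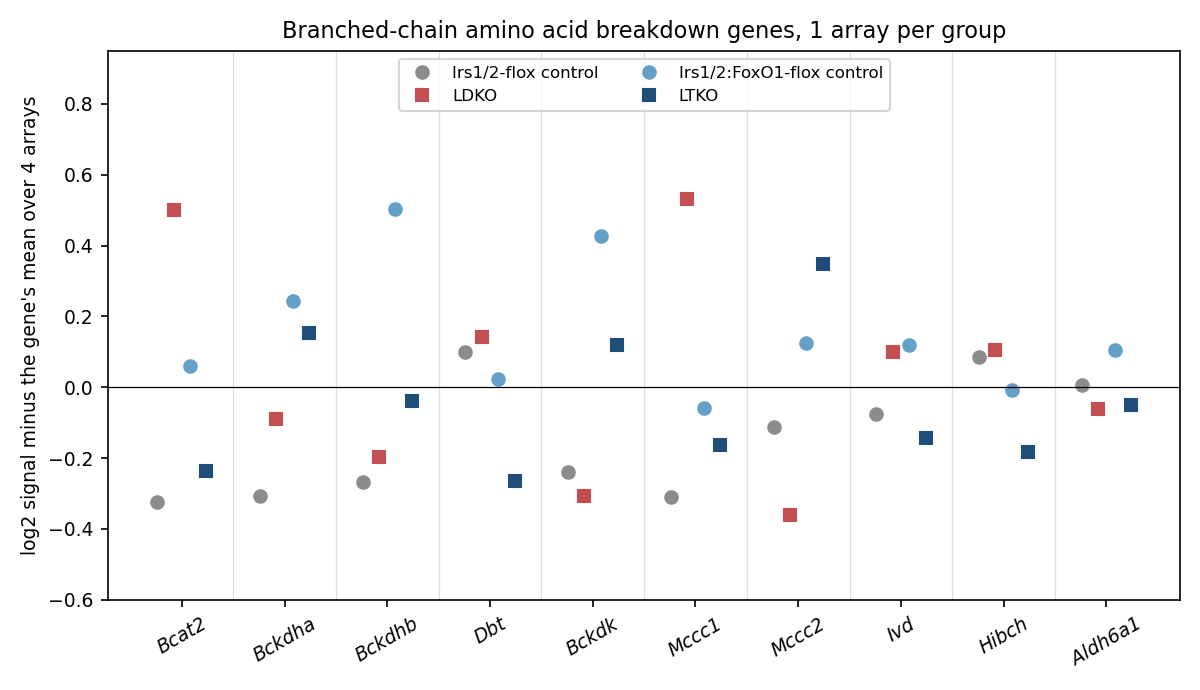
Log2 signal of each of the 10 genes on each of 4 arrays, after subtracting the gene's own mean over the arrays (vertical axis, log2 units); circles are the controls without Cre and squares the Cre lines, 1 array each. The LDKO square stands above all other points for Bcat2 and Mccc1 and below them for Mccc2, and both blue points stand above both others for Bckdha, Bckdhb, Bckdk and Mccc2.

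Bcat2, the entry enzyme, had a log2 signal of 7.50 in the Irs control, 8.32 in LDKO, 7.88 in the FoxO1 control and 7.59 in LTKO. LDKO was the high array, and LTKO lay between the 2 controls. LDKO stood 0.82 above its own control, a 1.77-fold difference, and 0.44 above the FoxO1 control, which falls short of 1.5-fold. LTKO stood 0.29 below its own control and 0.09 above the other, so the direction of that difference turned with the control used. Set directly against each other, LTKO was 0.74 lower than LDKO.

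The E1 subunits of the dehydrogenase complex shared a pattern. Bckdha was 8.14 in the Irs control, 8.35 in LDKO, 8.69 in the FoxO1 control and 8.60 in LTKO, and Bckdhb was 9.08, 9.15, 9.85 and 9.31 in the same order. For both genes the 2 arrays of the line with floxed Foxo1 lay above the 2 arrays without it, whether or not Cre was present. The 2 controls differed by 0.55 for Bckdha and by 0.77, or 1.71-fold, for Bckdhb. Within the lines, Bckdhb differed by 0.07 between LDKO and its control and by −0.54 between LTKO and its control. The LDKO values for both genes changed sign with the reference: against the FoxO1 control they were −0.33 for Bckdha and −0.70 for Bckdhb.

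Dbt, the E2 core of the same complex, did not follow the E1 subunits. Its signal was 10.06 in the Irs control, 10.10 in LDKO, 9.98 in the FoxO1 control and 9.70 in LTKO. LTKO was the low array, with differences of −0.29 from its own control, −0.36 from the other and −0.41 from LDKO, while the remaining arrays lay within 0.12 of each other. Dld, the E3 subunit, read 10.86 in LDKO, with the remaining arrays at 10.25 to 10.28. Subunits of 1 complex thus had their highest array in LDKO (Dld) or in the FoxO1 control (Bckdha, Bckdhb). For Dbt, LDKO was above the Irs control by only 0.04.

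The kinase Bckdk, which holds the complex in its inactive form, was 8.15 in the Irs control, 8.08 in LDKO, 8.82 in the FoxO1 control and 8.51 in LTKO. As for the E1 subunits, both arrays of the line with floxed Foxo1 were above both arrays of the other line. The controls differed by 0.67, or 1.59-fold, more than either Cre line differed from its own control (−0.07 for LDKO, −0.31 for LTKO). Its counterpart, the phosphatase Ppm1k, was 7.48 in the Irs control, 7.12 in LDKO, 7.21 in the FoxO1 control and 6.92 in LTKO. Ppm1k was thus highest in the array without Cre and without floxed Foxo1, and lowest in LTKO. It lies outside the rule for named genes and was chosen as the partner of Bckdk after its values were seen.

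In the leucine arm, the carboxylase subunits went opposite ways in LDKO against both controls, and only Mccc1 reached 1.5-fold there. Mccc1, the subunit that carries biotin, was 8.53 in the Irs control, 9.37 in LDKO, 8.78 in the FoxO1 control and 8.67 in LTKO. LDKO stood alone at the top, 0.84 (1.79-fold) above its own control and 0.59 above the other, past the 1.5-fold mark against both. Mccc2, the carboxyltransferase subunit, was 9.14, 8.89, 9.38 and 9.60 in the same order. Here LDKO was the lowest array, 0.25 below its own control and 0.49 below the other, both short of 1.5-fold. LTKO was the highest and exceeded LDKO by 0.71, or 1.63-fold, while for Mccc1 it was lower than LDKO by 0.69. Against its own control LTKO differed by −0.10 for Mccc1 and by 0.22 for Mccc2.

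Ivd, the dehydrogenase that precedes this carboxylase, was flat by comparison. It was 8.50 in the Irs control, 8.67 in LDKO, 8.69 in the FoxO1 control and 8.43 in LTKO. LDKO and the FoxO1 control were next to equal, and the LTKO difference from its own control was −0.26.

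Both genes of the valine arm also varied little. Hibch, which frees 3-hydroxyisobutyrate from coenzyme A, was 9.08 in the Irs control, 9.10 in LDKO, 8.99 in the FoxO1 control and 8.82 in LTKO. Aldh6a1, which yields propionyl-CoA, was 11.75, 11.68, 11.85 and 11.69 in the same order. LTKO was below its own control in both, by 0.18 for Hibch and by 0.15 for Aldh6a1. The dimmer probe of Aldh6a1 read between 6.79 and 7.04 and was higher in LTKO than in its control, by 0.24, so the probes differed in direction.

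Counted over the 10 genes, LDKO exceeded its own control by 1.5-fold or more in 2 genes, Bcat2 and Mccc1 (2.85% of 11533 genes past the filter did), and was lower by as much in 0 (3.88%). By any size, 7 were higher (43.2% of genes) and 3 lower (56.7%), and the median of the 10 differences was 0.06, beside −0.05 over all genes. Against the FoxO1 control 4 were higher (39.8% of genes) and 6 lower (60.2%), with a median of −0.09 (all genes −0.07). Past 1.5-fold, Mccc1 was higher (2.82% of genes) and Bckdhb and Bckdk lower (4.22%). Against its own control the differences of largest size were those of Mccc1 and Bcat2, and against the FoxO1 control those of Bckdk and Bckdhb. Muscle markers were lower in LDKO than in its own control in 14 of 14 cases and mesothelial markers in 11 of 11. Against the FoxO1 control 7 of 14 and 6 of 11 were lower. The part of these markers in the differences was not tested.

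In LTKO, 9 of the 10 genes were lower than in the FoxO1 control, where 57.1% of all genes were, and Mccc2 alone was higher (42.8% of genes). None reached 1.5-fold in either direction (3.55% of genes were past it upward and 0.867% downward), and the nearest was Bckdhb at −0.54. The median was −0.22, beside −0.03 over all genes. Against the Irs control 4 of 10 were lower (48.1% of genes) and 6 higher (51.9%), none past 1.5-fold (2.89% of genes upward, 2.12% downward), and the median was 0.12, so the direction for the list depended on which control was used. Dbt, Ivd, Hibch and Aldh6a1 were lower against both controls. The epididymal, testis and hepatocyte markers stood high on average in the LTKO array, and their part in these differences was not tested.

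**Figure D2:**
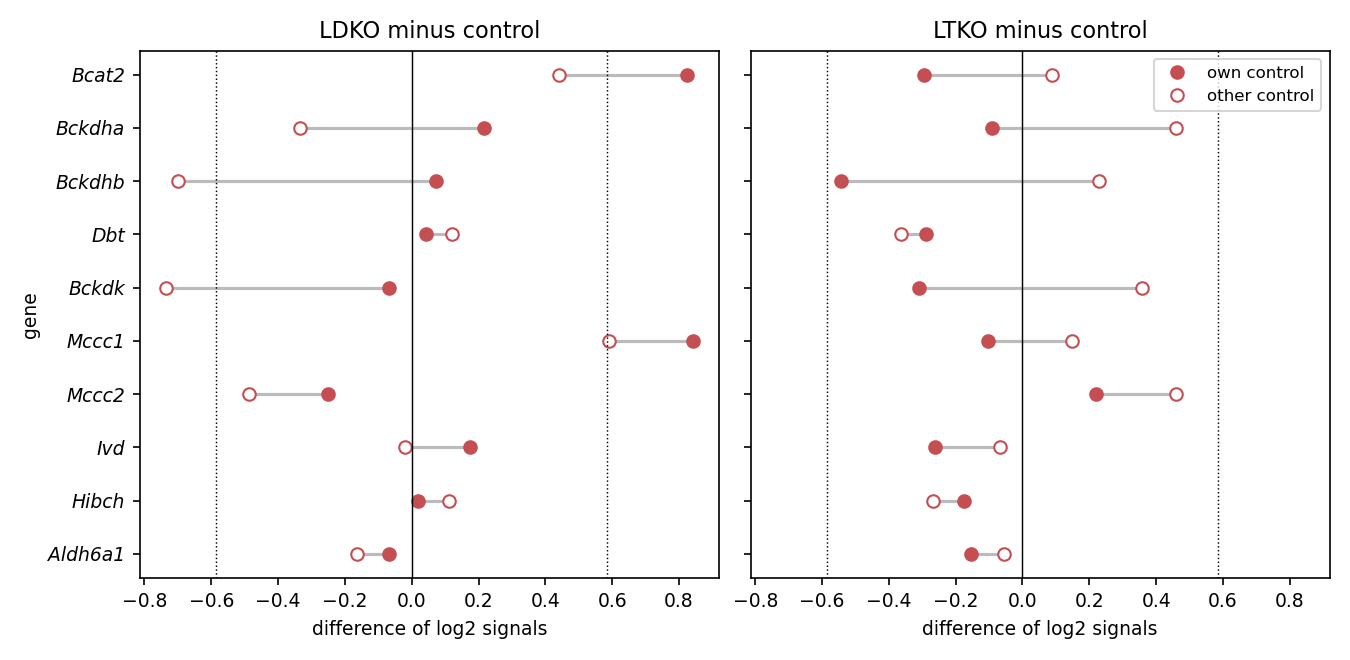
Difference of log2 signals (horizontal axis) for each of the 10 genes between LDKO (left) or LTKO (right) and the 2 controls; filled circles use the control of the same floxed line, open circles the other control, and dotted lines mark 1.5-fold. Bcat2 and Mccc1 stay to the right of 0 in LDKO with both controls, while Bckdha, Bckdhb and Bckdk shift by 0.55 to 0.77 with the choice of control.

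Between the 2 controls, which share the absence of Cre, 8 of the 10 genes were higher in the FoxO1 control (55.5% of 11432 genes) and 2 lower (44.5%). Bckdhb and Bckdk were past 1.5-fold upward (2.06% of genes) and 0 downward (2.48%). The median was 0.24, beside 0.03 over all genes. In 4 genes both arrays of the line with floxed Foxo1 were above both arrays of the other line (Bckdha, Bckdhb, Bckdk and Mccc2), and in 2 they were below (Dbt and Hibch). Over 11958 genes these shares were 22.6% and 14.3%. The split by line was made after the data were seen. Genotype at Foxo1, animal and array cannot be told apart in it.

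Set directly against LDKO, LTKO was higher past 1.5-fold in Mccc2 (5.41% of 11660 genes) and lower in Bcat2 and Mccc1 (2.57%). By any size 5 were higher (57.4%) and 5 lower (42.5%). The median was −0.12 (all genes 0.05). The Cre difference in the line with floxed Foxo1 minus that in the line without it had a median of −0.32 over the 10 genes, and it was most negative for Bcat2 (−1.12) and Mccc1 (−0.94) and most positive for Mccc2 (0.47). In 8 of the 10 genes the Cre lines stood on opposite sides of their own controls, and in 4, Bcat2, Mccc1, Mccc2 and Ivd, by at least 0.1 in each line. Of 11958 genes 49.8% and 21.6% did so. No test of these differences was possible.

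The order of the 4 arrays gave a second description of the same values. LDKO was the highest array for 4 genes, Bcat2, Dbt, Mccc1 and Hibch (22.7% of 11958 genes), and the lowest for 3, Bckdk, Mccc2 and Aldh6a1 (37.4%). The FoxO1 control was the highest for 5, Bckdha, Bckdhb, Bckdk, Ivd and Aldh6a1 (31.6%), and the lowest for 0 (18.7%). The Irs control was the lowest for 4, Bcat2, Bckdha, Bckdhb and Mccc1 (23.8%), and the highest for 0 (23.9%). LTKO was the lowest for Dbt, Ivd and Hibch (20.1%) and the highest for Mccc2 (21.7%). The genes thus split between arrays at both ends. Some places were near ties: LDKO was above the next array by 0.04 for Dbt and by 0.02 for Hibch. The FoxO1 control was above LDKO by 0.02 for Ivd, and LDKO was below LTKO by 0.01 for Aldh6a1.

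The counts turned on the threshold, since no gene was 2-fold apart in any of these comparisons. Of all genes, 0.572% were 2-fold higher and 0.624% lower in LDKO against its control, and 1.73% and 0.0434% in LTKO against its own. Between the Cre lines these shares were 1.51% and 0.6%, and between the controls 0.262% and 0.507%. At a smaller threshold of 0.322 on the log2 scale, LDKO exceeded its control in Bcat2 and Mccc1 (9.68% of genes) and was lower in 0 (14.9%), and Bckdhb was lower in LTKO (7.36%) and 0 higher (7.7%). At that threshold Bckdk and Mccc2 were higher in LTKO than in LDKO (16.2%) and Bcat2, Dbt and Mccc1 lower (9.91%). Between the controls Bcat2, Bckdha, Bckdhb and Bckdk were higher in the FoxO1 control (11.1%) and 0 lower (9.22%).

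Other enzymes of the route were mostly higher in LDKO than in its own control, but not than in the other control. Of 19 measured of 20, LDKO exceeded its own control in 17, 4 of them past 1.5-fold, and the median over the 17 past the filter was 0.26. Against the FoxO1 control 10 were higher and 9 lower, with a median of 0.11. Among all genes past the filter, LDKO was higher in 43.2% and in 39.8%, and 1.5-fold above its own control in 2.85%. These 4 were Oxct1, the enzyme that activates acetoacetate (0.85), Pcca, the biotin-carrying subunit of propionyl-CoA carboxylase (0.69), the thiolase Acaa2 (0.65) and Dld (0.61). Oxct1, Pcca and Dld kept differences of 0.97, 0.59 and 0.62 against the other control, whereas Acaa2 was at 0.25. Pccb, the partner of Pcca, was 8.84 in the Irs control, 9.32 in LDKO, 9.57 in the FoxO1 control and 9.26 in LTKO, so the propionyl-CoA carboxylase subunits, like those of the leucine enzyme, peaked in different arrays. Ehhadh, a peroxisomal enzyme of acyl-CoA breakdown, was 0.89 higher in the FoxO1 control than in the Irs control. In LTKO 13 of the 19 were lower than in its control, none by 1.5-fold, with a median of −0.07, while 4 of 19 were lower than in the Irs control (median 0.08). Over all genes the shares lower in LTKO were 57.1% and 48.1%.

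Genes that supply cofactors differed little. Of 12 measured of 15, LDKO exceeded its control in 11 (median 0.08) and the FoxO1 control in 8 (median 0.05). LTKO was below its own control in 10 (median −0.18) and below the Irs control in 6 (median −0.02). Over all genes past the filter LDKO was higher in 43.2% and 39.8%, and LTKO lower in 57.1% and 48.1%. Etfb, a subunit of the flavoprotein that takes electrons from Ivd, was 0.61 higher in LDKO and Etfdh, which passes them to ubiquinone, 0.49 higher; against the other control these were 0.21 and 0.17.

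Transporters mostly ran the other way. Of 9 branched-chain and related amino acid transporter genes, 7 were lower in LDKO than in its own control (56.7% of all genes past the filter). Against the other control 9 of 9 were lower (60.2%), and the medians over the 8 past the filter were −0.30 and −0.41. The 2 not lower than in the own control were the mitochondrial carrier Slc25a44 (0.05) and Slc6a15 (0.06), which was below the filter. Slc7a8, the light chain of LAT2, was 9.29 in the Irs control, 8.27 in LDKO, 9.04 in the FoxO1 control and 8.64 in LTKO. Slc7a5, the light chain of LAT1, was 5.82, 4.96, 5.43 and 6.02 in the same order. Both were lowest in LDKO, by 1.02 and 0.86 against its own control. Slc43a1, the transporter LAT3, was 8.71 in the FoxO1 control and 7.63 to 7.87 in the other 3 arrays, so its LTKO difference of −1.08 against that control was −0.25 against the other. In LTKO 8 of the 9 were lower than in its own control (57.1% of all genes), with a median of −0.27. Against the Irs control 5 of 9 were lower (48.1%), with a median of −0.13.

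Regulators were mixed, with 6 of 11 above the control in LDKO (median 0.03) and 3 of 11 higher in LTKO (median −0.16). With the other control as reference these were 3 of 11 in LDKO (median −0.21) and 8 of 11 in LTKO (median 0.12). The shares of all genes higher were 43.2% in LDKO and 42.8% in LTKO against their own controls. Against the other control they were 39.8% and 51.9%. Mlxipl, the carbohydrate-responsive factor ChREBP, was 7.50 in the Irs control, 6.74 in LDKO, 7.80 in the FoxO1 control and 7.52 in LTKO. Ppargc1a, a coactivator of mitochondrial genes, was 6.48, 6.01, 6.88 and 7.07 in the same order. LDKO was the low array for both. The lipogenic factor Srebf1 and the adipocyte factor Cebpa exceeded the control in LDKO by 0.71 and 0.61, and the other control by 0.21 and 0.27. Klf15, a glucocorticoid-induced factor of amino acid metabolism chosen after its values were seen, was 7.40 in the Irs control, 6.98 in LDKO, 7.10 in the FoxO1 control and 6.90 in LTKO. The Irs control was its high array.

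The respiratory chain was the closest contrast. Of 24 measured subunits and carriers, 24 were higher in LDKO than in its own control and 24 than in the other control, by medians of 0.51 and 0.24, beside 0.06 and −0.09 for the 10 breakdown genes. For fatty acid oxidation LDKO exceeded its own control in 10 of 11 genes and the FoxO1 control in 9, with medians of 0.54 and 0.17. Of all genes past the filter, 43.2% and 39.8% were higher in these comparisons. In LDKO the breakdown list therefore held genes on both sides of 0 where the respiratory chain list did not. No test of this difference between lists was made. In LTKO, 19 of 24 respiratory chain genes were lower than in its own control, with a median of −0.07. For fatty acid oxidation 8 of 11 were lower, with a median of −0.04. Against the Irs control 5 of 24 and 1 of 11 were lower. Of all genes past the filter, 57.1% and 48.1% were lower in LTKO against its own and the other control.

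**Figure D3:**
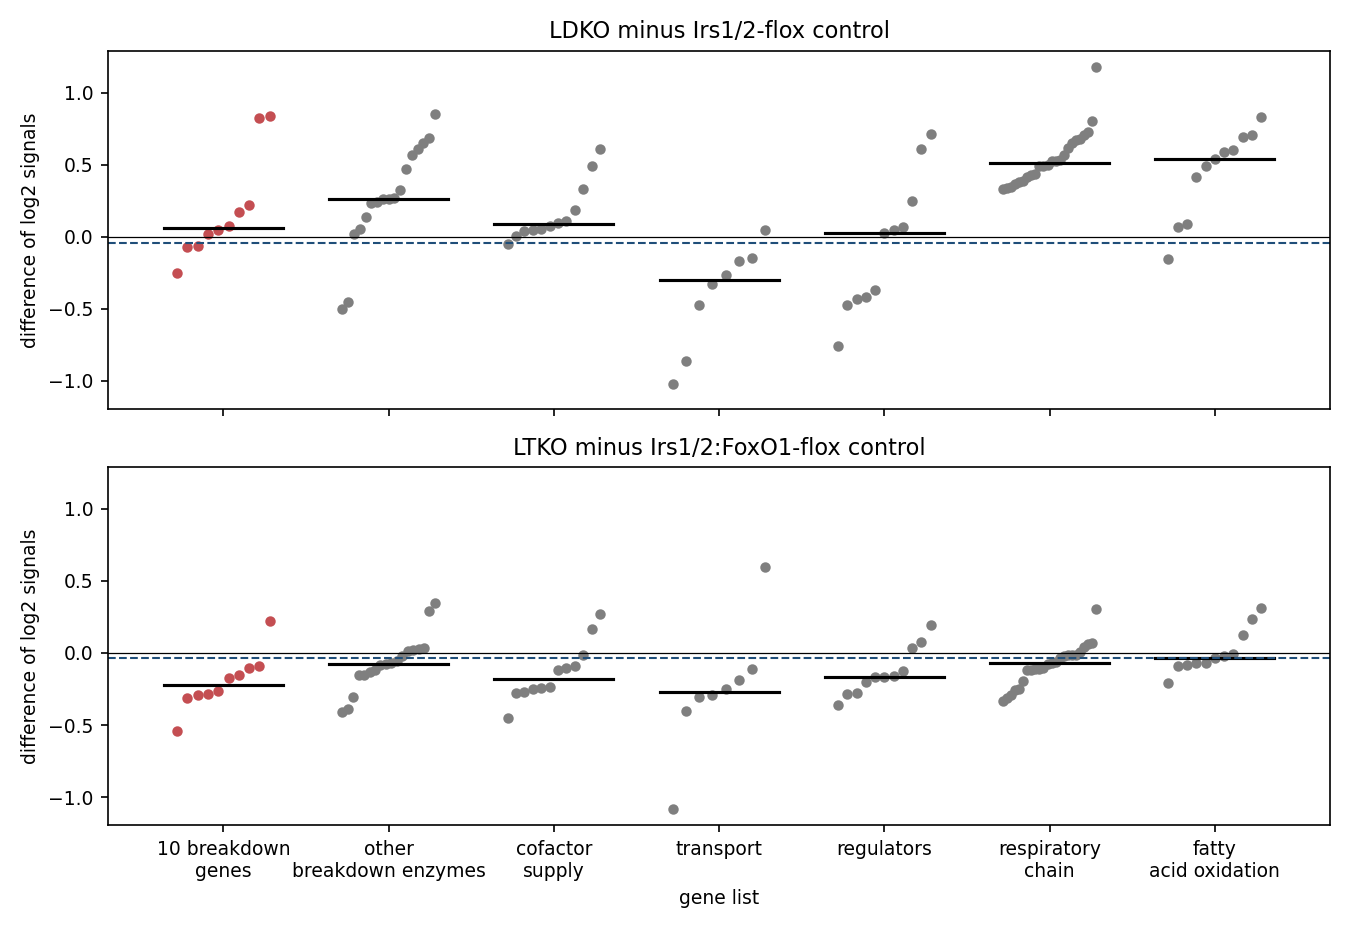
Difference of log2 signals (vertical axis) of each gene past the filter in LDKO (top) and LTKO (bottom) against the control of the same floxed line, by gene list; points are genes sorted by value, black bars list medians and the dashed line the median of all genes. The 10 breakdown genes straddle 0 in LDKO with Bcat2 and Mccc1 far above the rest, and 9 of 10 lie below 0 in LTKO.

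Adipocyte markers had medians of 0.08 in LDKO and −0.13 in LTKO against their own controls, and 0.06 and −0.009 against the other control. In LDKO 3 of 13 were past 1.5-fold upward (2.85% of all genes past the filter). Lep, the hormone leptin, was 10.24 in the Irs control, 11.09 in LDKO, 9.47 in the FoxO1 control and 10.20 in LTKO. It was higher in each Cre line than in its own control, but LTKO differed from the Irs control by −0.03. Slc2a4, the insulin-responsive glucose transporter, was 8.04 in LDKO and lay between 6.95 and 7.40 in the remaining arrays, and the third was Cebpa, also among the regulators. LDKO was the high array for all 3.

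Endothelial markers had medians of 0.05 in LDKO and 0.00084 in LTKO. Macrophage markers were lower in 13 of 14 cases in both Cre lines against their own controls (medians −0.35 and −0.34), and in 11 (LDKO) and 14 (LTKO) of 14 against the other control. Stromal progenitor markers were lower in 7 of 8 in both, and in 7 and 5 of 8 against the other control. T and NK cell markers were higher in LDKO in 7 of 7 cases (5 of 7 against the FoxO1 control) and lower in LTKO in 7 of 7 against either control. Brown fat markers were higher in 6 of 7 cases in LDKO (4 of 7 against the FoxO1 control), and 5 of the 7 passed the filter. Cidea was 5.97 in the Irs control and 6.93 to 7.43 in the other arrays. Ucp1 went the other way, with LDKO lowest at 4.83 and the other arrays at 5.05 to 5.80. Over all genes past the filter, LDKO was lower than its own control in 56.7% and than the other in 60.2%. For LTKO these shares were 57.1% and 48.1%. The part of these cell types in the differences of the breakdown genes was not tested.

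The genes whose 4 values, after subtracting their own mean, came closest to the mean course of the 10 were Parp9, Brms1, Pycrl, Dcaf17 and Vti1a, at Euclidean distances of 0.0133 to 0.0251 over 4 arrays. That mean course was shallow, from −0.14 in the Irs control to 0.15 in the FoxO1 control, with LDKO at 0.04 and LTKO at −0.05, and it hid the separate courses of Bcat2, Mccc1 and Mccc2.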

How the data were processed

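RNA of fasted mouse fat was hybridised to Affymetrix whole-transcript arrays, 1 per group. The deposited values are log2 signals; the submitters' processing notes name Expression Console and RMA, without versions or the set of arrays normalized together. RMA removes a shift shared by all genes and compresses differences of dim probes.

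Of 41345 probes, 23521 have 1 gene symbol and 1814 several; the latter were not used. A gene was its brightest probe by the mean over 4 arrays. All 10 member symbols matched RefSeq (GRCm38.p6) by gene identifier. Genes entered a comparison where their highest array in it reached the median gene (5.15). Differences are of log2 signals, with a call at 1.5-fold and no test. The members, lists and rules were chosen with earlier results of these data known. Named pathway genes were those 1.5-fold apart in any comparison or, where fewer than 2, the pair with the widest range; named markers were the 3 of a list with the widest range, and others were chosen after their values were seen.

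Steps were tested on simulated data. Alternatives were other thresholds, filters, probe rules, normalizations, centring and references. Analyses used Python 3.11.15, numpy 2.4.6, pandas 2.3.3, statsmodels 0.14.6 and matplotlib 3.10.9.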

Additional observations from a re-analysis of the deposited data

Results flagged for a closer look

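Some of the 10 genes and of the pathway genes named above stood on opposite sides of their own control in the 2 Cre lines, by at least 0.1 in each; with 1 array per group the difference was not tested. The values are the LTKO difference minus the LDKO difference. Among the 10 breakdown genes 8 had opposite signs (49.8% of all genes past the filter) and 4 passed that size (21.6%): Bcat2 (−1.12), Mccc1 (−0.94), Mccc2 (0.47) and Ivd (−0.44). Among the other enzymes named these were Pccb (−0.78), Ehhadh (−0.68) and Acaa2 (−0.80), and among the electron carriers named Etfb (−0.85) and Etfdh (−0.61). The transporter Slc7a5 was at 1.46. Of the regulators named, Ppargc1a was at 0.67, Srebf1 at −0.88 and Cebpa at −0.77. Pathway genes that the text does not name were not screened here, nor were Ppm1k, Klf15, Gpt, Tat, Aass, Sesn2, Sesn3 and Rragd. Of these, Tat (−1.18 in LDKO, 1.39 in LTKO), Aass (−0.22, 1.58), Sesn2 (−0.89, 0.30), Sesn3 (0.69, −0.15) and Rragd (−0.34, 0.98) also stood on opposite sides. The pathway genes screened had mostly been named for being 1.5-fold apart in these same data.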

How the results depend on the processing

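With the other control as reference, the median over the 10 genes turned from 0.06 to −0.0927 in LDKO and from −0.22 to 0.12 in LTKO. That swap shifts each gene by exactly its difference between the 2 controls (median 0.24), whose cause was not tested. With the mean of both controls the median was −0.10 in LTKO. The median difference of the Cre effects was −0.32 with own controls. With the mean of both controls the reference cancels, and the value of −0.12 is that of LTKO against LDKO. Without the gene with the largest difference, the median of LTKO against LDKO turned from −0.12 to 0.0106, and 1 gene each was left at 1.5-fold in LDKO against its control and between the controls. At 2-fold the counts were 0 in LDKO, 0 between the Cre lines and 0 between the controls; at 0.322 on the log2 scale they were 1 in LTKO, 5 between the Cre lines and 4 between the controls. Of 280 values of single breakdown genes under alternatives, 253 moved by less than 0.1, 27 moved by more and 0 called values changed sign. For the other pathway genes named these were 369, 51 and 0 of 420. These counts overstate stability, because a filter cannot change a gene's difference and the probe mean can move only genes with several probes. Sign changes of differences short of 1.5-fold were not counted as such. With the other control, Bckdhb in LDKO turned from 0.07 to −0.70 and Bckdk in LTKO from −0.31 to 0.36. Filters, the mean of all probes, quantile normalization, a removed loess curve (span 0.3) and centring changed no count by over 1.5 times. No paired analysis was possible because each group has 1 array. Signals carry no error here, and dim genes such as Slc7a5 understate their differences.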

Other observations

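Breakdown of other amino acids held wider differences than the branched-chain route in single genes, which were chosen after their values were seen. The list counted here is broader than breakdown. It also takes in the synthetases Asns and Glul and the pyruvate dehydrogenase subunits Pdha1, Pdhb and Dlat. Against own controls their LDKO differences were 0.26, 0.0003, 0.30, 0.565 and 0.70 in that order, and their LTKO differences were all negative. No count was made without them. Of 26 measured genes of this list, LDKO exceeded its control in 18, with a median of 0.20 past the filter, and LTKO exceeded its control in 12, with a median of −0.05. With the other control as reference these were 16 (median 0.02) and 20 (median 0.12). Of all genes past the filter, 43.2% (LDKO) and 42.8% (LTKO) exceeded their own control, and 39.8% and 51.9% the other. Gpt, the cytosolic alanine aminotransferase, was 4.98 in the Irs control, 6.72 in LDKO, 5.27 in the FoxO1 control and 5.36 in LTKO, so LDKO stood apart from both controls. Tat, the tyrosine aminotransferase and also a hepatocyte marker here, was 5.91, 4.72, 5.39 and 6.77 in the same order; it was highest in the LTKO array, in which hepatocyte markers were also highest.

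Genes of leucine and amino acid sensing were split, with 5 of 10 higher in LDKO and 5 of 10 higher in LTKO than in their own controls. Against the other control these were 4 and 7 of 10. The shares over all genes were 43.2% and 42.8% with own controls, and 39.8% and 51.9% with the other. Sesn2, a leucine sensor induced by stress, was 7.77 in the Irs control, 6.88 in LDKO, 7.80 in the FoxO1 control and 8.10 in LTKO. Its family member Sesn3 was highest in LDKO, at 8.25, and between 7.56 and 7.84 in the other arrays. Rragd alone of this list was past 1.5-fold in LTKO against its own control (3.55% of all genes were upward). It was 5.23 in the Irs control, 4.89 in LDKO, 4.89 in the FoxO1 control and 5.87 in LTKO. The genes named here were chosen after their values were seen.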
